A study of Mus musculus with 6 samples.

Results

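The cytosolic ribosomal protein genes encode the structural proteins of the cytoplasmic ribosome, 1 set for the large subunit and 1 for the small subunit. They were taken from the deposited gene table as protein-coding genes with an Rpl or Rps symbol, the stalk genes Rplp0, Rplp1 and Rplp2, and Rpsa, leaving out pseudogene symbols and genes without a normalized value. This gave 81 genes of the 25157 with normalized values, 49 of the large subunit and 32 of the small subunit. The choice used symbols, gene types and whether a normalized value was given, not the difference between the diets. Of the 83 genes that matched by symbol and type, Rpl39l and Rpl10l had no normalized value. Rpl39l had 0 counts in all 6 libraries, and Rpl10l had 1, 0 and 1 in the controls and 1, 2 and 2 under food restriction.

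The libraries were made from nephron progenitor cells, the fetal kidney cells that give rise to the nephron epithelium, sorted by GFP at E18.5. Embryos of both groups came from CD-1 dams and Six2 Cre tg/+ sires, so the Cre transgene, driven by the progenitor gene Six2, was present in the crosses of both groups. The 3 control libraries came from pregnancies on a control diet, and the 3 food-restricted libraries from pregnancies on a reduced diet throughout. The sample labels put the reduced diet at 30% of daily calories and the series text at 70%, and which was fed is not settled by the sources used here. How many embryos or litters went into a library is not given, so p-values speak only of the spread among the libraries at hand. Six2 and 5 other progenitor genes had a summed normalized count of 18482 to 19000 in the controls and 18423 to 19462 under food restriction. Of these 6, limma called Meox1 lower, at -0.42 on the log2 scale with an adjusted p of 0.00152, and Pax2 higher, at 0.28 with an adjusted p of 7.48e-06.

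A ribosome is built from ribosomal RNAs and a nearly fixed set of proteins, and cells adjust the supply of these proteins together. The messenger RNAs of these proteins begin with a C followed by an unbroken stretch of pyrimidines, the terminal oligopyrimidine element, through which nutrient and growth signals that act on mTOR control their translation. Loss of 1 copy of several of the genes causes Diamond-Blackfan anaemia in humans, a disorder of red cell formation.

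Libraries held 6515127 to 16763479 counts. Food-restricted replicate 1 was the shallowest and food-restricted replicate 3 the deepest. Gm42418, a transcript of the ribosomal RNA repeat that total RNA libraries retain, took 6.59%, 7.87% and 7.37% of the counts in control replicates 1 to 3 and 7.42%, 5.27% and 4.54% in food-restricted replicates 1 to 3. Markers of other cells also differed between the diets. The summed normalized count of 6 proximal tubule genes was 5471 to 5860 in the controls and 3118 to 3170 under food restriction, with 6 of 6 called lower. That of 5 stroma genes was 1545 to 1640 and 1836 to 2177, with 3 of 5 called higher, and that of 4 macrophage genes 211 to 229 and 327 to 419, with 4 of 4 called higher. Podocyte genes summed to 193 to 219 and 204 to 220, with 1 of 4 called lower, and no gene of the ureteric, endothelial or erythroid lists was called. No marker was at 0 in all libraries. The part of these markers in the values below was not tested, and in such bulk samples fewer cells of a type and less RNA per cell cannot be told apart.

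The ribosomal protein genes were slightly lower in food-restricted progenitors, in the large and the small subunit alike. In the limma test over all genes, 10 of 49 large subunit genes and 10 of 32 small subunit genes fell at an adjusted p under 0.05, and 0 rose. Over all 25157 genes 2.5% were called lower and 2.24% higher, and over the 2463 genes with a mean normalized count of at least 1000, the level of most ribosomal protein genes, 10.3% were called lower and 7.55% higher. The log2 fold change was negative for 47 of 49 large subunit genes and 31 of 32 small subunit genes. Its median was -0.12 in the large subunit, a fold of 0.921, and -0.13 in the small subunit, a fold of 0.912, beside -0.0028 over all genes and -0.0091 over the genes with a mean of at least 1000. At an unadjusted p under 0.05, 30 large and 19 small subunit genes were lower and 0 were higher. Over all 25157 genes, 2037 were lower and 1882 higher at that level. Over the 2463 genes with a mean of at least 1000, 516 were lower and 437 higher. Limma-voom and the authors' deposited table also called 0 ribosomal protein genes higher.

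**Figure D1:**
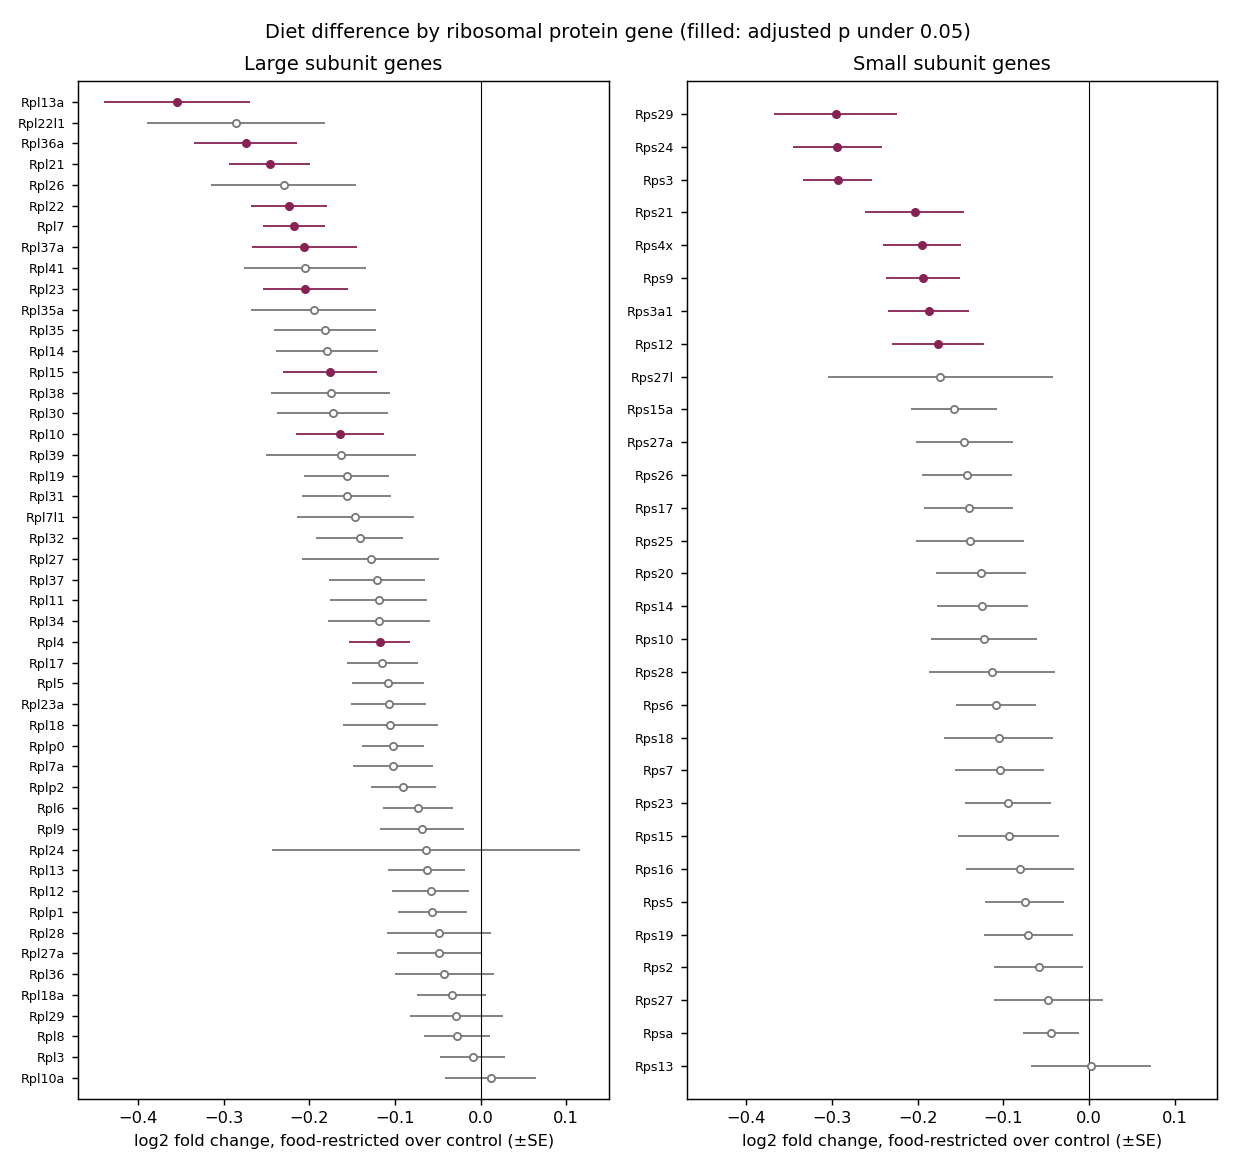
Log2 fold change (food-restricted over control) of 78 ribosomal protein genes ± SE from limma, large and small subunit apart, with called genes as filled points; Rpl3l, whose mean normalized count was 2.16, and 2 small subunit genes are not drawn. Nearly all points lie left of 0, between -0.35 and 0.01.

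In 19 large and 13 small subunit genes every food-restricted library lay below every control library, 32 of 81 in all. That ordering was found in 10.2% of all genes and 20.5% of genes with a mean of at least 1000. No ribosomal protein gene lay above the controls in every food-restricted library, an ordering found in 9.48% of all genes. The authors' deposited table has 13 ribosomal protein genes, 5 large and 8 small, lower at an adjusted p under 0.05, against 1.75% of all genes, and 0 higher, against 1.43%. All 13 were among the 20 called here.

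The 3 food-restricted libraries did not differ from the controls to the same degree. Relative to the control mean, the median large subunit gene lay at -0.0027, 0.013 and -0.0021 on the log2 scale in control replicates 1 to 3, and at -0.038, -0.13 and -0.21 in food-restricted replicates 1 to 3. The median small subunit gene lay at -0.013, 0.017 and -0.0044 in the controls and at -0.052, -0.13 and -0.22 under food restriction. The first food-restricted library was thus close to the controls, and the third farthest from them, in both subunits. Food-restricted replicate 3 was the lowest of the 6 libraries for 65 of 81 genes, 80.2%, against 14.3% of all genes and 25.9% of genes with a mean of at least 1000.

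**Figure D2:**
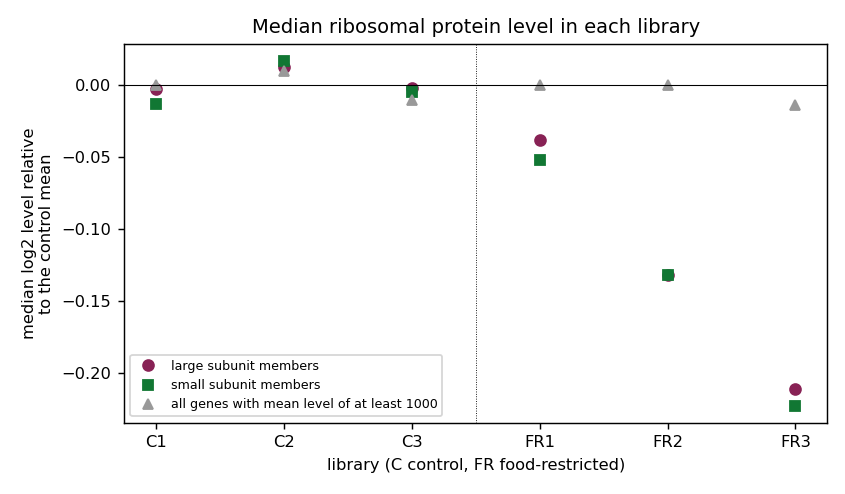
Median log2 level of the large and small subunit genes in each library relative to the control mean, beside the median of all genes with a mean normalized count of at least 1000. The controls lie within 0.02 of 0, and food-restricted replicates 1, 2 and 3 lie at about -0.04, -0.13 and -0.21 in the large subunit.

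Counts of calls moved with the settings and libraries used. With a pseudocount of 0.5, a minimum mean of 10, TMM scaling without the ribosomal protein genes, a replicate block and limma-voom, 17, 17, 22, 14 and 38 of the 81 genes were called lower, and 2.42%, 3.99%, 2.58%, 2.1% and 3.13% of all genes. Without food-restricted replicate 3 limma called 3 large and 2 small subunit genes lower, without food-restricted replicate 2 it called 5 and 5, and without food-restricted replicate 1 it called 20 and 16. Of all genes, 1.29%, 1.76% and 2.99% were called lower in these fits. Without control replicate 2 it called 4 and 6, with 1.59% of all genes, and without control replicate 3 it called 6 and 6, with 1.65%. Rpl7, Rpl21, Rpl22, Rps3 and Rps24 were called in all 6 fits that left out 1 library, and each of the other 15 called genes lost its call in at least 1 of them. Without food-restricted replicate 3 the median log2 fold change was -0.084 in the large and -0.079 in the small subunit.

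The order of the food-restricted libraries in many of these genes was also that of the Gm42418 share. In 20 of 81 genes, 24.7%, the controls ranked among themselves, and the food-restricted libraries among themselves, in the order of that share, against 2.70% of all genes and 5.56% of genes with a mean of at least 1000. Among the controls alone 21 of 81, 25.9%, had that order, against 17.4% of genes with a mean of at least 1000. Among the food-restricted libraries alone 55 of 81, 67.9%, had it, against 24.8%. The food-restricted libraries ranked by falling Gm42418 share also ranked by rising depth and by falling share of mitochondrial counts. Their order therefore does not single out the Gm42418 share. Gm42418 itself fell under food restriction, with a log2 fold change of -0.40 ± 0.063 (SE) and an adjusted p of 4.86e-06 in limma. In a fit chosen after seeing the data, with that share as a second term beside diet, 5 of the 20 genes were still called lower, Rpl7, Rpl22, Rps3 and Rps4x among them, against 1.58% of all genes. In this fit 58 of 81 log2 fold changes were negative, with medians of -0.058 in the large and -0.053 in the small subunit. The slope on the share was positive for 41 of 49 large and 30 of 32 small subunit genes. So it was for 11931 of all 25157 genes and 1298 of the 2463 with a mean of at least 1000. It was called positive for 12 large and 8 small subunit genes, against 84 of all 25157 genes and 52 of the 2463. For the 4 named genes the log2 fold changes in this fit were -0.18, -0.20, -0.18 and -0.18, beside -0.22, -0.22, -0.29 and -0.20 with diet alone. The shares overlapped between the diets at food-restricted replicate 1 only.

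Ribosomal protein transcripts also took a smaller part of all counted reads. Large subunit genes took 1.33%, 1.33% and 1.33% of the counts in control replicates 1 to 3 and 1.29%, 1.26% and 1.22% in food-restricted replicates 1 to 3. Small subunit genes took 0.802%, 0.803% and 0.803% and then 0.768%, 0.744% and 0.710%. Every food-restricted library lay below every control in both shares. The mean share of the large subunit was 1.33% ± 0.00249 in the controls and 1.26% ± 0.0391 under food restriction (SD, n = 3 each), a relative change of -5.51%, with an exact two-sided permutation p of 0.1. For the small subunit the relative change was -7.70%, with the same exact permutation p of 0.1, the smallest that 3 against 3 allows. The ratio of large to small subunit reads was 1.66, 1.65 and 1.65 in the controls and 1.69, 1.69 and 1.71 under food restriction, again without overlap and again with an exact permutation p of 0.1.

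**Figure D3:**
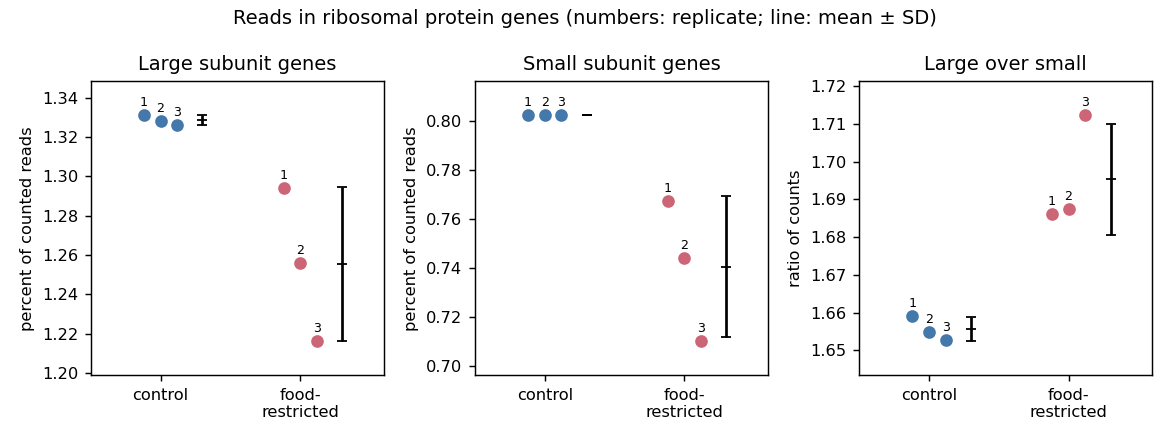
Share of all counted reads, in percent, taken by large subunit genes and by small subunit genes in each of the 6 libraries, with the group mean ± SD, and the ratio of large to small subunit reads; the axes do not start at 0. The large subunit shares are 1.33% in the controls and 1.22% to 1.29% under food restriction, and the small subunit shares 0.802% to 0.803% and 0.710% to 0.768%.

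Levels varied widely among the genes. Per kilobase of annotated exon, Rplp1 was highest at 10769 normalized counts per kb over the 6 libraries, followed by Rpl4 at 5285 and Rplp0 at 4609. Rpl3l, a variant of Rpl3 known from striated muscle, was lowest at 1.32, then Rpl24 at 105 and Rpl22l1 at 148. Rpl24 shares 484 of its 1030 exonic bases with Gm28037 on the same strand, and reads there cannot be told apart in gene counts. The length counts the exons of all annotated transcripts, so this order depends on the annotation as well as on the mRNA level. Over 80 genes, leaving out Rpl3l, Spearman's rho between the level per kb and the log2 fold change was 0.118, and between exonic length and the log2 fold change 0.0314. Both are descriptions across genes that share the same 6 libraries.

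RefSeq promoters of build GRCm38.p6 were matched to 61 of the 81 genes by symbol, with 73 start sites. Because these messages are known for pyrimidines at their start, the 20 bases before and the first 30 bases after each start were searched on the gene's own strand for an unbroken run of at least 8 bases that are C or T. Such a run stood at 35 of 73 starts, 47.9%, against 19.0% of 32851 starts of all genes. The same search on the opposite strand found 6 of 73, 8.22%, against 21.9%. Of the large subunit starts 52.3% held the run and of the small subunit starts 41.4%, and it stood at 6 of 18 starts of called genes and 29 of 55 starts of the others. The windows below show 15 bases before and the first 15 bases after the annotated start, 5′ to 3′ on the gene's strand, with the longest pyrimidine run in the window in capitals. They are shown to compare called genes, Rps3, Rps24, Rps9, Rpl13a and Rpl15, with Rps6 and Rps27, which were not called. They are examples and not a sample of the starts, and Rps24 has a second annotated start whose window holds no run longer than 4.
Rps3 (chr7:99483695-99483724, minus strand): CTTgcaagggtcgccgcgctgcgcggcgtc
Rps24 (chr14:24490663-24490692, plus strand): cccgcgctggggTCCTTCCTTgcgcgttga
Rps9 (chr7:3704026-3704055, plus strand): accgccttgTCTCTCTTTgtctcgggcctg
Rpl13a (chr7:45128731-45128760, minus strand): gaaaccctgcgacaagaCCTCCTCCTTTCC
Rpl15 (chr14:18270972-18271001, minus strand): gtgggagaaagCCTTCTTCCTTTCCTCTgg
Rps6 (chr4:86857353-86857382, minus strand): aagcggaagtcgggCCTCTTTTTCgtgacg
Rps27 (chr3:90213634-90213663, minus strand): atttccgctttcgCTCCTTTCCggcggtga
Runs of 8 or more pyrimidines thus stood at starts of called and of uncalled genes. The longest run in the Rps3 window is 3 bases, and a missing run says only that these letters are not in this window.

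Among small subunit genes, Rps3 had the smallest p. Rps3, a protein of the head that lines the entry of the messenger RNA channel, lies at chr7:99477896-99483738 (GRCm38, minus strand). Its normalized counts were 9561, 9584 and 9441 in control replicates 1 to 3 and 8505, 7936 and 6962 in food-restricted replicates 1 to 3. The controls lay close together and every food-restricted library lay below them, the third lowest. The mean fell from 9529 ± 76.9 to 7801 ± 780 (SD, n = 3), a log2 fold change of -0.29 ± 0.040 (SE) with an adjusted p of 2.42e-07 in limma. The snoRNA gene Snord15b shares 145 exonic bases with Rps3 on the same strand, and reads there cannot be told apart in gene counts.

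Rps24, a protein of the small subunit body and 1 of the Diamond-Blackfan anaemia genes, had normalized counts of 4117, 4461 and 4211 in the controls and 3989, 3455 and 3046 under food restriction. The groups did not overlap, but the first food-restricted library lay just under the lowest control. Rps24 fell by 0.29 ± 0.052 (SE) on the log2 scale, with an adjusted p of 5.41e-05 in limma, while the authors' deposited table gives it an adjusted p of 0.213. Rps9, a body protein that binds early in assembly and contacts the messenger RNA entry, had 5467, 5787 and 5343 and then 5248, 4723 and 4556. Again no food-restricted library reached a control, with the first closest. Its log2 fold change was -0.19 ± 0.043 (SE), with an adjusted p of 0.00175 in limma.

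Rps29, a zinc-binding protein of the head, had 1043, 1119 and 1171 in the controls and 1025, 921 and 782 under food restriction. The lowest control and the highest food-restricted library were nearly level. Its log2 fold change was -0.30 ± 0.072 (SE), with an adjusted p of 0.00509 in limma. Rps3a1, a platform protein near the messenger RNA exit, had 3524, 3992 and 3897 and then 3591, 3219 and 3214. Its groups overlapped, since food-restricted replicate 1 lay above control replicate 1. It was nevertheless called, at -0.19 with an adjusted p of 0.00805 in limma.

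By place in the subunit, 3 of 14 head genes (Rps3, Rps29 and Rps12) and 7 of 17 body and platform genes fell, with median log2 fold changes of -0.12 and -0.14, beside 10.3% called lower among all genes with a mean of at least 1000. Rps21, a body protein, had 1478, 1518 and 1582 in the controls and 1352, 1320 and 1303 under food restriction, a clear gap that all 3 libraries showed. It fell by 0.20 on the log2 scale with an adjusted p of 0.0239 in limma. Rps6, the protein phosphorylated by the S6 kinases downstream of mTOR, had 3289, 3293 and 3016 and then 2982, 3062 and 2855. The groups overlapped at control replicate 3, and the log2 fold change of -0.11 did not pass, with an adjusted p of 0.213 in limma.

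Rpsa, which sits between head and body and is also known as a laminin receptor, was among the most abundant. It had 9994, 9826 and 9893 in the controls and 9665, 9503 and 9647 under food restriction. All 3 food-restricted libraries were lower, by a small step. The log2 fold change was -0.04, with a 95% interval of -0.11 to 0.02 and an adjusted p of 0.576 in limma. Rps13, a platform protein, had 888, 861 and 846 and then 935, 876 and 793. The groups overlapped fully, with an interval of -0.14 to 0.14.

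**Figure D4:**
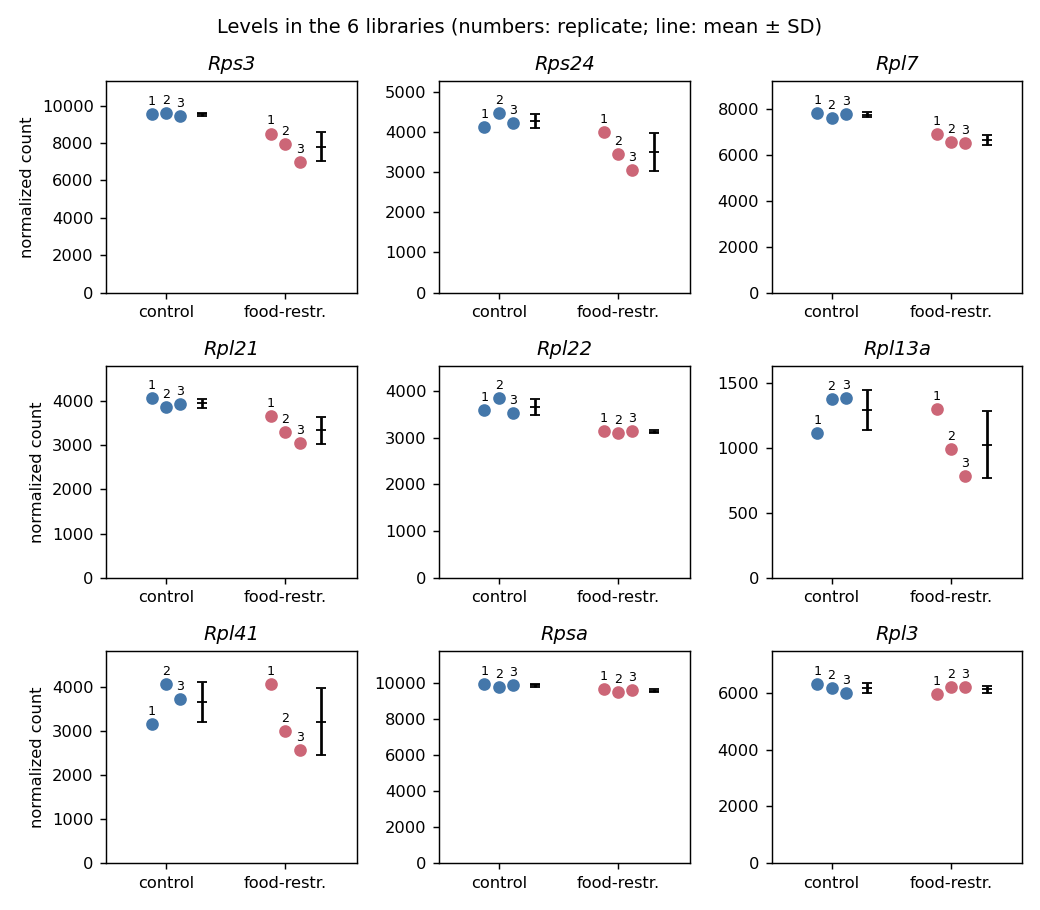
Normalized counts of 9 ribosomal protein genes in the 6 libraries, numbered by replicate, with the mean ± SD of each diet; every axis starts at 0. Rps3, Rps24, Rpl7, Rpl21 and Rpl22 are lower in every food-restricted library, Rpl13a and Rpl41 overlap between diets, Rpsa is lower by a small step and Rpl3 overlaps fully.

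In the large subunit Rpl7 had the smallest p. Rpl7, a protein near the 5S ribosomal RNA, lies at chr1:16101295-16104662 (GRCm38, minus strand). Its normalized counts were 7794, 7603 and 7780 in the controls and 6899, 6547 and 6485 under food restriction. The diets were well apart and each was tight. Rpl7 fell from 7725 ± 106 to 6644 ± 223 (SD, n = 3), by 0.22 ± 0.037 (SE) on the log2 scale, with an adjusted p of 2.21e-05 in limma.

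Rpl21, which lies in the same region of the large subunit, had 4053, 3857 and 3925 in the controls and 3665, 3287 and 3052 under food restriction. No library overlapped, and food-restricted replicate 3 was lowest. Rpl21 fell by 0.25 ± 0.047 (SE) on the log2 scale, with an adjusted p of 0.000255 in limma. It shares exonic bases with 2 annotated snoRNAs. Rpl22, a protein at the rim of the exit tunnel that ribosomes can lack, had 3604, 3843 and 3534 and then 3151, 3096 and 3149. Here the food-restricted libraries were nearly equal. Rpl22 fell by 0.22 ± 0.045 (SE), with an adjusted p of 0.000468 in limma.

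Rpl36a, a protein at the site where spent transfer RNA leaves, had 1975, 2128 and 2062 in the controls and 1968, 1639 and 1518 under food restriction. Food-restricted replicate 1 lay just under the lowest control. Rpl36a fell by 0.27 ± 0.060 (SE) on the log2 scale, with an adjusted p of 0.00156 in limma. Rpl23, a protein of the face that meets the small subunit, showed the same layout, with 3144, 3291 and 3231 and then 3120, 2694 and 2599. Rpl23 fell by 0.20 ± 0.050 (SE), with an adjusted p of 0.00562 in limma.

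Rpl13a, which in human monocytes also leaves the ribosome to block translation of inflammatory messages, had the lowest log2 fold change among all 81. It had 1111, 1376 and 1378 in the controls and 1297, 991 and 783 under food restriction. The diets overlapped, with control replicate 1 below food-restricted replicate 1. Its log2 fold change was -0.35 ± 0.085 (SE), with an adjusted p of 0.00487 in limma and 0.669 in the authors' deposited table, and it was 0.011 with the Gm42418 share as a term. Without food-restricted replicate 3 it was -0.18 with an adjusted p of 0.377 in limma, and without control replicate 2 or 3 the adjusted p was 0.0869 or 0.117. Rpl13a shares 621 exonic bases with Gm45713 on the same strand. Rpl41, the smallest protein of the ribosome, was not called and had a like layout, with 3169, 4081 and 3728 and then 4074, 2997 and 2579. Its log2 fold change was -0.20, with an adjusted p of 0.0862 in limma. In both genes control replicate 1 was the lowest control and the food-restricted libraries ranked in the order of the Gm42418 share.

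The other called large subunit genes had smaller changes. Rpl4, which lines the exit tunnel, had 10861, 11128 and 11105 in the controls and 10776, 10329 and 9441 under food restriction. Only food-restricted replicate 3 lay far from the controls. Rpl4 fell by 0.12 on the log2 scale, with an adjusted p of 0.0362 in limma. Rpl37a fell by 0.21, Rpl10 by 0.16 and Rpl15 by 0.18, with adjusted p of 0.0333, 0.048 and 0.0486 in limma.

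The acidic stalk, which recruits the elongation factors, had 0 of 4 genes called by limma, with 2 lower at an unadjusted p under 0.05. At that level 516 of the 2463 genes with a mean of at least 1000 were lower. Rplp0, its base, had 7951, 8190 and 7619 in the controls and 7315, 7582 and 7225 under food restriction, without overlap. The log2 fold change was -0.10, with a 95% interval of -0.18 to -0.03 and an adjusted p of 0.0971 in limma. Rplp2 had a log2 fold change of -0.09, Rplp1 of -0.06 and Rpl12 of -0.06, with adjusted p of 0.201, 0.556 and 0.588 in limma. By limma-voom, Rplp0 and Rplp2 were called lower.

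Rpl5 and Rpl11 bind the 5S ribosomal RNA and, outside the ribosome, hold back Mdm2 and so p53 breakdown. Neither was called by limma, and both were lower at an unadjusted p under 0.05. So were 516 of the 2463 genes with a mean of at least 1000. Rpl5 had 7793, 8353 and 8403 in the controls and 8455, 7457 and 6928 under food restriction. Food-restricted replicate 1 was the highest of all 6 libraries. The log2 fold change was -0.11 with an adjusted p of 0.142 in limma, and Rpl5 was called lower by limma-voom. Rpl11 had a log2 fold change of -0.12 and an adjusted p of 0.285.

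At the rim of the exit tunnel, where chains leave the ribosome, 1 of 8 genes fell, Rpl22, with a median log2 fold change of -0.16 and 8 of 8 negative, beside 10.3% called lower among all genes with a mean of at least 1000. Rpl19 missed the threshold narrowly, at -0.16 with an adjusted p of 0.0505 in limma. Rpl3, the core protein near the peptidyl transferase centre, had 6329, 6173 and 5994 in the controls and 5971, 6211 and 6196 under food restriction. The diets overlapped fully, and the log2 fold change of -0.01 had a 95% interval of -0.08 to 0.07. Rpl10a of the mobile L1 stalk had 1919, 2095 and 2001 and then 2104, 1995 and 1963, with an interval of -0.09 to 0.12. Rpl8, another core protein, had a log2 fold change of -0.03.

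**Figure D5:**
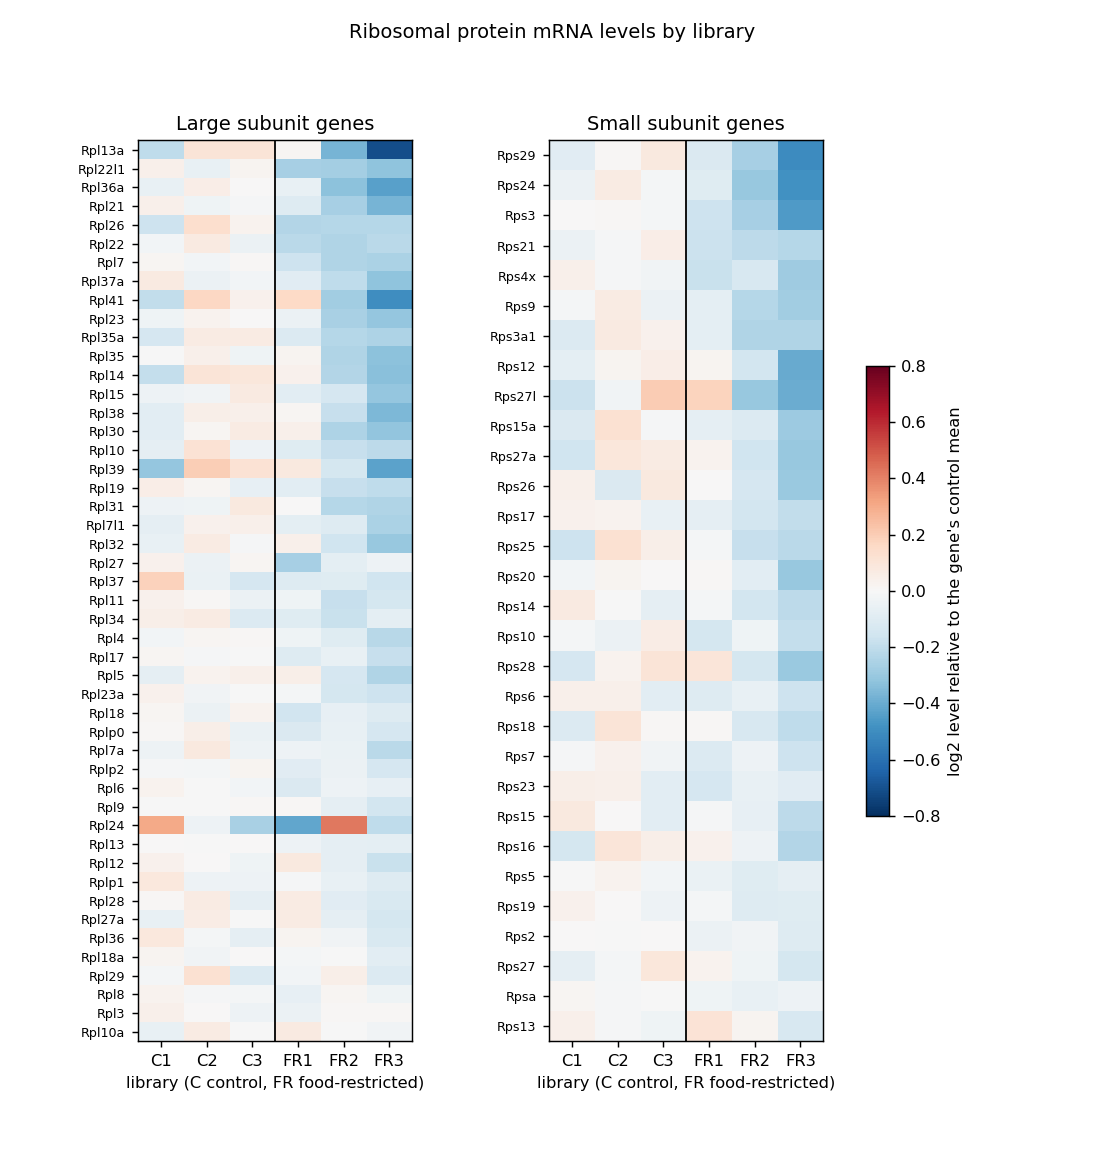
Log2 level of 78 ribosomal protein genes in each of the 6 libraries relative to the gene's control mean, rows grouped by subunit and ordered by log2 fold change; Rpl3l and 2 small subunit genes are not drawn. Food-restricted replicate 3 is the lowest of the 6 libraries for 65 of the 81 genes, and replicate 1 lies closest to the controls.

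Several ribosomal proteins have variant genes that can replace them. None of the 4 measured variant genes was called by limma, with 2 lower at an unadjusted p under 0.05. Over all 25157 genes, 2037 were lower at that level. Rpl22l1, which takes the place of Rpl22 and is known in mice to increase when Rpl22 is lost, had 333, 311 and 328 in the controls and 269, 268 and 259 under food restriction. Both Rpl22 and Rpl22l1 were lower in every food-restricted library, although Rpl22l1, with a log2 fold change of -0.29 ± 0.10 (SE), did not pass, at an adjusted p of 0.108 in limma. Rpl7l1 had a log2 fold change of -0.15 beside the -0.22 of Rpl7, and Rps27l of -0.17 beside the -0.05 of Rps27, with adjusted p of 0.271 and 0.584 for the variants in limma. Rpl3l had normalized counts of 5.53, 0 and 1.07 and then 1.76, 3.95 and 0.656, too few to compare.

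Of the 4 ribosomal protein genes on the X chromosome, 3 fell (Rpl36a, Rps4x and Rpl10), against 3.12% of the 833 X-linked genes tested called lower. The median mean normalized count of the 833 was 32.2. Of the 77 autosomal ribosomal protein genes, 17 fell. Among all genes with a mean of at least 1000, the level of 3 of the 4 and 67 of the 77, 10.3% were called lower. Rpl36a, Rps4x and Rpl10 kept their calls in 5, 4 and 1 of the 6 fits that left out 1 library. Rps4x, a body protein, had 3725, 3593 and 3545 in the controls and 3204, 3311 and 2978 under food restriction. There was a gap between the diets, and Rps4x fell by 0.20 ± 0.046 (SE) on the log2 scale with an adjusted p of 0.00341 in limma. Rpl39, a small protein inside the exit tunnel, was the X-linked gene not called, at -0.16 with an adjusted p of 0.370. Xist, the RNA that silences 1 X chromosome in female cells, had 16741, 17825 and 18395 normalized counts in the controls and 27067, 26736 and 25999 under food restriction, with an adjusted p of 5.92e-25 in limma. The share of female cells in each library was not determined. The part of Xist and of embryo sex in the X-linked and other values was not tested.

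Of the 20 genes mutated in Diamond-Blackfan anaemia in humans, 3 fell (Rps24, Rps29 and Rpl15), with 20 of 20 negative and a median log2 fold change of -0.13. Among all genes with a mean of at least 1000, the level of 16 of the 20, 10.3% were called lower.

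Ribosomal proteins outside the symbol rule did not pass. Of 4 tested, 0 were called by limma and 1 was lower at an unadjusted p under 0.05, against 2037 of all 25157 genes. Fau, the source of a small subunit protein, had a log2 fold change of -0.11 and an adjusted p of 0.320. Rack1, the signalling scaffold on the head, had 0.02 and an adjusted p of 0.892.

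Other translation genes whose messages start with the same pyrimidine element were compared as a list of 25, of which 24 were tested. In limma 6 fell and 1 rose, with a median log2 fold change of -0.10. Among all genes with a mean of at least 1000, the level of 23 of the 24, 10.3% were called lower and 7.55% higher. Npm1, a nucleolar chaperone of ribosome assembly, had 12340, 12055 and 12133 in the controls and 11154, 10401 and 9817 under food restriction. All food-restricted libraries were lower, the third lowest. Npm1 fell by 0.22 ± 0.035 (SE) on the log2 scale, with an adjusted p of 5.67e-06. Tpt1, the translationally controlled tumour protein, fell by 0.22, and Eif3a, the largest part of initiation factor eIF3, by 0.14, with adjusted p of 7.47e-06 and 0.0025 in limma. Eef2, the elongation factor that moves the ribosome along, was the gene that rose. It had 24467, 23544 and 22937 and then 24486, 25890 and 25923, with food-restricted replicate 1 nearly level with control replicate 1. Its log2 fold change was 0.10 with an adjusted p of 0.0155 in limma. The authors' deposited table called 0 genes of this list higher. Of 6 chaperones that escort single ribosomal proteins, 0 were called by limma or in the authors' deposited table. Of the 6, 1 was lower at an unadjusted p under 0.05, against 2037 of all 25157 genes. Bccip had a log2 fold change of -0.24 with an adjusted p of 0.0685, Heatr3 of 0.13 with 0.397 and Tsr2 of -0.13 with 0.591, all in limma.

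Ribosomal protein genes have many processed pseudogenes of near-identical sequence, and reads that match a gene and its copies can be split between them. The table lists 263 pseudogene symbols, of which 90 were tested, with a median mean normalized count of 4.15 and a highest of 520. They took 0.0153% ± 0.000927 of the counts in the controls and 0.0157% ± 0.00141 under food restriction (SD, n = 3), with an exact two-sided permutation p of 0.9. In limma 1 of the 90 fell and 0 rose, against 2.5% and 2.24% of all genes. At an unadjusted p under 0.05 stood 3 of the 90, against 2037 lower and 1882 higher of all 25157 genes. The median level of the 81 ribosomal protein genes was 2369, so these counts are not set against theirs. Of the 81 ribosomal protein genes, 38 share exonic bases with another annotated gene, mostly snoRNAs.

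Removing from each library a trend of expression on gene length reduced the difference. The median exonic length was 1781 bases in the 81 genes and 3237 over all genes. After this correction 5 large and 4 small subunit genes were called lower by limma, against 2.37% of all genes, and 69 of 81 log2 fold changes were negative. The medians were then -0.072 and -0.086, and 8 of the 9 called genes were among the 20.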

How the data were processed

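The authors deposited 1 gene table for all 6 libraries. The submitters' processing notes name GRCm38 as the build and, among the tools, DESeq2, HTSeq 0.6.0, TopHat2 2.1.1, cutadapt and bcl2fastq. Per the labels the libraries were stranded total RNA from low input. The strand setting of the counting and the handling of reads with several matches are not given in the labels or notes. The table lists 52386 genes, 45659 of them with whole read counts. For 25157 genes it also gives the authors' normalized counts, each count divided by a size factor of its library, and the authors' own comparison. Neither kind of column could be declared as plain counts because both mark missing values with a symbol, so the values were treated as other units.

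The main test was limma-trend (limma 3.58.1, R 4.3.3) on log2(normalized count + 1), with diet alone in the model. It was two-sided, adjusted by Benjamini-Hochberg over all 25157 genes, and a gene was called below an adjusted p of 0.05. Each fold change sets food-restricted over control, and the pseudocount understates it for low genes. The fit was also run on simulated counts, drawn independently for each gene and library. That run does not cover libraries that shift together over many genes. Read shares were compared by exact permutation. Exonic lengths and overlaps came from the GENCODE M21 annotation of GRCm38, with a length for all 81 genes, and start sites from RefSeq.

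The genes, role groups, lists and tests were chosen with earlier results of these data known. Named genes were, per subunit, the 6 with the smallest p and the 3 with the highest log2 fold change at a mean of at least 100, the stalk, 5S, Rpsa, Rps6 and variant genes with their parents, and the 3 smallest p per list. The other called genes and Rpl19, Rpl24, Rpl41, Eef2, Xist and Gm42418 were named after their values were seen. A few genes covered by this rule are not reported here. Alternatives changed the pseudocount, a filter on low values, the scaling, a replicate block, a length correction and the libraries used, and limma-voom and the Gm42418 term were added after seeing the data.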

Additional observations from a re-analysis of the deposited data

How the results depend on the processing

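The counts of large and small subunit genes called lower (10 and 10) stayed within 1.5 times under a pseudocount of 0.5, a minimum mean of 10, TMM scaling with and without the ribosomal protein genes, and upper-quartile scaling, with 16 to 22 called in all. They came to 5 and 4 with the length trend removed, 22 and 16 by limma-voom, and 2 and 3 with the Gm42418 share as a term, where 664 genes were called in all, against 1193. Leaving out 1 library gave 3 to 20 large subunit genes, 2 to 16 small subunit genes and 564 to 1357 genes in all. The replicate block gave 6 large and 8 small subunit genes. Same-numbered libraries correlated at -0.111, 0.0262 and -0.0718, and differently numbered ones at -0.0566 to 0.107. With 3 libraries per group these values cannot show whether the numbers pair the libraries. The cause of these moves was not tested. A planned edgeR test and a new DESeq2 run were not run.

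Signs turned in some genes, most of them not called. With the Gm42418 share as a term the log2 fold change was 0.011 for Rpl13a, 0.033 for Rps27, 0.046 for Rpl12, 0.036 for Rpl5, 0.14 for Rpl39, 0.13 for Rps27l and -0.12 for Rpl3l. With the length trend removed it was 0.0076 for Rpl3, 0.040 for Rpl8, 0.036 for Rps27 and 0.055 for Rplp1. Rpl3 had 0.0032 under upper-quartile scaling, Rpl10a -0.0018 by limma-voom, and Rps13 -0.00043 under TMM without the ribosomal protein genes and -0.030 by limma-voom. Leaving out 1 library gave -0.029 to 0.010 for Rpl3, -0.019 to 0.044 for Rpl10a, -0.053 to 0.066 for Rps13, -0.13 to 0.0028 for Rpl12 and -0.38 to 0.97 for Rpl3l.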
